A study of Drosophila melanogaster with 2 samples.

Results

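Sarcomere structural genes code for the parts of the contractile unit of muscle. The 10 genes described here were taken from a fixed list of names, and every listed peak with its summit from 2 kb upstream of the gene to its end was assigned to it. They are 10 of 13968 protein-coding genes, and 4 of the 2993 peaks of the most stringent list belong to them.

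The protein followed is the product of CG10462, made in a transgenic Drosophila melanogaster line (CG10462-GFP) as the fusion CG10462-eGFP, which carries a fluorescent tag at the C-terminus. Chromatin immunoprecipitation with sequencing (ChIP-seq), with an antibody against the tag, was done on whole embryos 0 to 24 hours old, of pooled sex, after sonication to 200 to 800 bp. There is 1 group of 2 samples, labelled biological replicates 2 and 3, both from the same line, and no untagged sample was analysed here. The labels do not say which promoter drives the fusion, and peak lists hold no expression values with which to check the tissue.

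In a sarcomere, thick filaments of myosin slide along thin filaments of actin, and thin filaments are anchored at the Z-disc. Tropomyosin and the troponin complex sit on the thin filament and switch the interaction on when calcium rises. Flies make most of these proteins from few genes with many alternative transcripts. The tropomyosin gene Tm1 has separate starts for muscle forms and for forms used in other cells. Muscle is only one of the tissues of a late embryo, and a peak in whole embryos averages over all of them.

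The deposited lists are ranked here by the signal value of the authors' peak caller, with rank 1 the strongest. The optimal list holds the 2993 peaks that passed the authors' test of agreement between replicates (irreproducible discovery rate, IDR). The relaxed lists of the pooled reads, of replicate 2 and of replicate 3 hold 30000 entries each, background included. Read counts are not part of these lists, so sequencing depth is unknown. Positions are in build dm6, counted from 1, and a summit within 500 bp of an annotated transcript start is called a start summit.

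Peaks of the optimal list were found at 2 of the 10 genes, the tropomyosin gene Tm1 and the titin-like gene sls. Tm1 had 3 summits and sls had 1, and all 4 were start summits. Among all protein-coding genes 14.7% had a start summit and 21.4% had a summit in the window, so 2 of 10 is near the background by either count. Among protein-coding genes of the same range of lengths (2411 to 75931 bp) the window share was 29.6%, and among those from 10 kb it was 41.1%. Of the 5 listed genes that long (Mhc, Prm, Tm1, wupA and sls), 2 had a summit. The other 8 genes, Mhc, Mlc1, Mlc2, Prm, Act57B, Tm2, up and wupA, had none. In whole embryos, a site bound in fewer cells and a site bound less often in each cell cannot be told apart.

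The sequences under the summits at sls and Tm1 are shown because they are the sites where the protein was found at these genes. Each is the 100 bases around the summit (Release 6 assembly) on the strand of the gene. Capitals mark letters that match any of the short sequences searched for and listed further on. The sls site is chr3L:2115865-2115964 (minus strand), and the Tm1 sites are chr3R:15287824-15287923, chr3R:15281035-15281134 and chr3R:15281237-15281336 (plus strand).
sls, rank 510: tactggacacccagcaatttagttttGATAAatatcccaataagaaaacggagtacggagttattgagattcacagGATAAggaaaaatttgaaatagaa
Tm1, rank 548: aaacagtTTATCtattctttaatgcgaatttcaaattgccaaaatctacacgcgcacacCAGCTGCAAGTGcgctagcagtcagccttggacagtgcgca
Tm1, rank 1697: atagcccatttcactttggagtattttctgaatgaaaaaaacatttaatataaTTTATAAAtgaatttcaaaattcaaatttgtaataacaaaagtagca
Tm1, rank 2966: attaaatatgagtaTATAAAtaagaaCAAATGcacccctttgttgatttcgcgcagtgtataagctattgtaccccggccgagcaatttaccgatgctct
The 150 bases before the start are also shown for 2 light chain genes without an optimal peak. Mlc1 (chr3R:27660178-27660327, minus strand) had no entry in any list, and Mlc2 (chr3R:30174552-30174701, minus strand) had a weak one. These windows differ in length and place from the summit windows, so their matches are not a contrast. Other genes without an optimal peak, namely Mhc, Prm, Tm2, up and wupA, had matches in the 150 bases before the start with most transcripts. The bases of Mlc1 and Mlc2 are these.
Mlc1: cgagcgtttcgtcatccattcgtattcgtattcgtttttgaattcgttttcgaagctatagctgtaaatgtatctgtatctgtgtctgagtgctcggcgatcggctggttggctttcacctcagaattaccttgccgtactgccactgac
Mlc2: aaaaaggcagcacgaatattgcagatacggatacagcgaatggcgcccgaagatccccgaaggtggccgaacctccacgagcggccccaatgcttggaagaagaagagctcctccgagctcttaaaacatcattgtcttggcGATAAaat

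**Figure D1:**
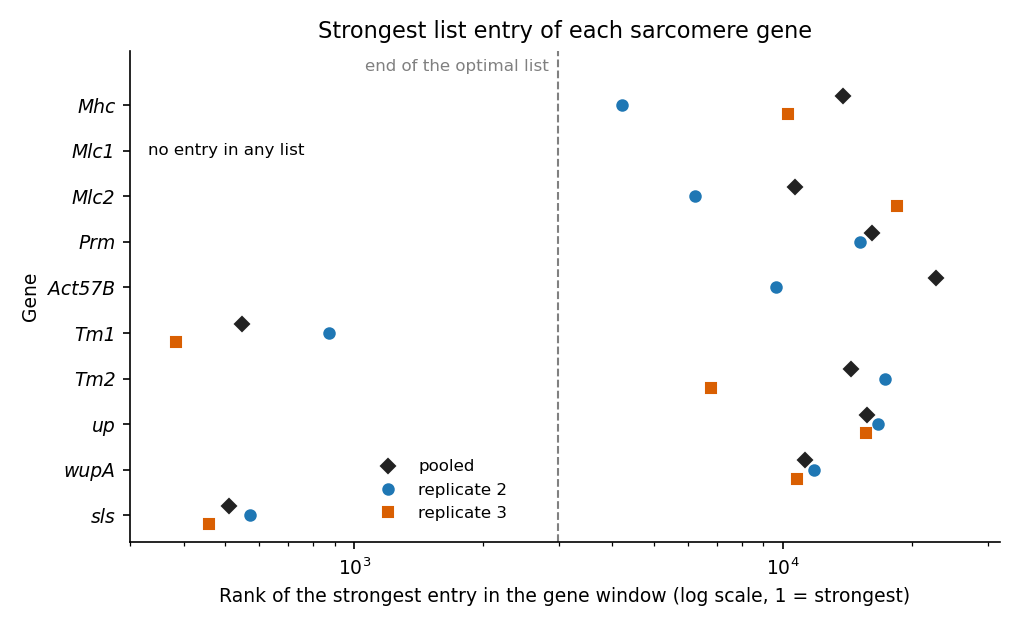
Rank of the strongest entry in each gene's window (x axis, log scale, 1 is strongest) in the pooled list (diamonds), replicate 2 (circles) and replicate 3 (squares); the dashed line is the end of the optimal list at 2993. Tm1 and sls lie left of the line in all of these lists, Mlc1 has no entry, and no entry of the remaining 7 genes passes 4217.

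The thick filament genes had no peak of the optimal list, where 21.4% of all protein-coding genes had one in the window. Mhc, Mlc1 and Prm had few pooled entries for their length. Mlc2 had 0.587 per kb of window, more than 84.7% of all protein-coding genes. Mhc (FBgn0264695, 2L 16766566 to 16788766, plus strand) is the only muscle myosin heavy chain gene of the fly and makes all muscle forms by alternative splicing. Its only pooled entry ranked 13789 and lay in an intron, 4040 bp downstream of the nearest start. An entry overlapping it ranked 11257 in replicate 3, and replicate 2 had none there. The start used by 14 of its 21 transcripts (16766734) had no pooled or replicate 2 entry within 500 bp, and the replicate 3 entry there ranked 20595.

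Near the 3' end of Mhc, both replicates had an entry that the pooled list lacks. It ranked 4217 in replicate 2, with a summit at 16787808, and 10270 in replicate 3, at 16787835. The replicate 2 summit was 2913 bp from a start of Cyt-b5-r and 19197 bp from the nearest Mhc start. Of the 5000 strongest entries of replicate 2, 4409 overlapped a replicate 3 entry, and of these 7 (0.159%) had no pooled entry. The rank of 4217 is the best that any of the 8 genes without an optimal peak reached in any list.

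Mlc1 (FBgn0002772, 3R 27657078 to 27660177, minus strand) codes for the essential light chain of muscle myosin. It had 0 entries in its window of 5.10 kb in the pooled list and in either replicate. Mlc2 (FBgn0002773, 3R 30171438 to 30174551, minus strand) codes for the regulatory light chain. Its start entry was weak but present in all of the relaxed lists, at rank 12376 in the pooled list, 17110 in replicate 2 and 18400 in replicate 3, with summits 123, 129 and 118 bp upstream. A second entry, at pooled rank 10678 and replicate 2 rank 6218, lay in an untranslated part of an exon, 394 bp from a start of the neighbouring gene Rsod. A stronger pooled entry, at rank 9080, overlaps it and has its summit outside the Mlc2 window. Replicate 3 had no entry there.

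Prm (FBgn0003149, 3L 8732858 to 8745310, minus strand) codes for paramyosin, which forms the core of invertebrate thick filaments. From its first start come transcripts for a protein of 879 residues, and from an inner start (8738907), 6403 bp further on, come shorter forms of 307 to 640 residues. Neither start had a pooled entry within 500 bp. The only pooled entry of Prm ranked 16134, at its 3' end, 980 bp from a start of Cp16 and 5983 bp from the nearest Prm start. The best replicate 2 entry ranked 15110, in a coding exon 336 bp into the gene. Replicate 3 had 0 entries in the window.

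Of the thin filament genes, Tm1 stood alone with peaks of the optimal list. Act57B (FBgn0000044, 2R 20944021 to 20946431, plus strand) codes for a muscle actin made in embryonic and larval muscle. Its 2 pooled entries ranked 22667, 223 bp downstream of the start, and 27845, 1250 bp upstream. Replicate 2 had entries at 9616 and 18215, and replicate 3 had 0. The upstream site, at 9616 in replicate 2, was therefore seen in a single replicate.

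Troponin T and troponin I, the subunits that tie troponin to tropomyosin and that hold contraction off, are coded on X by up (FBgn0004169, 13593474 to 13602578, minus strand) and wupA (FBgn0283471, 18105568 to 18116922, minus strand). At the start cluster of up, where 15 of its 18 transcripts begin within 213 bp, an entry ranked 15694 in the pooled list, 19042 in replicate 2 and 15588 in replicate 3. These ranks are in the weaker part of each list, though the site was listed in all of them. At wupA no start had an entry within 500 bp in any list. Its best pooled entry, at rank 11242, was in an intron 858 bp downstream of a start, with 11792 in replicate 2 and no overlapping entry in replicate 3. Replicate 3 had 6 entries at wupA, from rank 10795 to 28639, and replicate 2 had 1.

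Tm2 (FBgn0004117, 3R 15310193 to 15315197, plus strand) codes for the second muscle tropomyosin and begins 1414 bp after the end of Tm1. Its best site was in an intron, at rank 14412 in the pooled list, 17245 in replicate 2 and 6790 in replicate 3. Near its starts there was a pooled entry at 23131 and none within 500 bp in either replicate. A pooled entry at 27176 lies in the window of both tropomyosin genes and is counted once.

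Tm1 (FBgn0003721, 3R 15278220 to 15308779, plus strand) had peaks at some of its starts and not at others. The gene codes for tropomyosin forms of muscle and of other cells, and the annotation gives 18 transcripts from 8 start positions. Its strongest site took rank 548 with pooled reads, 874 with replicate 2 alone and 385 with replicate 3 alone. Its summit, at 15287874, was 138 bp upstream of the start at 15288012. From that start come only the RefSeq transcript variants C and I, each coding for 441 residues. Tm1-I/C is known in the fly as an atypical tropomyosin that takes part in kinesin transport of oskar RNA in the oocyte, and it is not a sarcomere protein.

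The other pair of Tm1 peaks lay before the start cluster at 15281371 to 15281550, which serves 11 of the 18 transcripts. Those transcripts code for proteins of 161 to 711 residues, among them forms of 284 and 285 residues. The summits were at 15281085 (rank 1697), 286 bp upstream of the nearest start, and at 15281287 (rank 2966), 84 bp upstream. These peaks overlap each other by 214 bp and their summits are 202 bp apart. Each replicate had a single entry there, with its summit at 15281235 (rank 1291) in replicate 2 and at 15281085 (rank 2216) in replicate 3. The replicate summits were thus 150 bp apart, and whether the pooled pair is 1 site or separate sites was not tested.

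The remaining Tm1 starts had weak entries or none. At the first start (15278220, variant T) the pooled entry ranked 9239, and its summit was nearer to a start of MRG15, 100 bp away. At the start of variant H (15286419) it ranked 10470. The starts of variants A, Q and R (15290944 and 15290946), which code for 250 to 252 residues, had no entry within 500 bp in any list. Inside the gene, an intron entry 2679 bp downstream of the nearest start ranked 3678 in the pooled list, 4823 in replicate 2 and 2765 in replicate 3. The rank of 2765 is within the first 2993 of replicate 3, while the pooled rank lies just outside the optimal list. The next one, at 4687, ranked 3715 in replicate 2 and 10578 in replicate 3. Its pooled summit was nearer to a start of CG45218 (648 bp) than to any Tm1 start (793 bp).

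**Figure D2:**
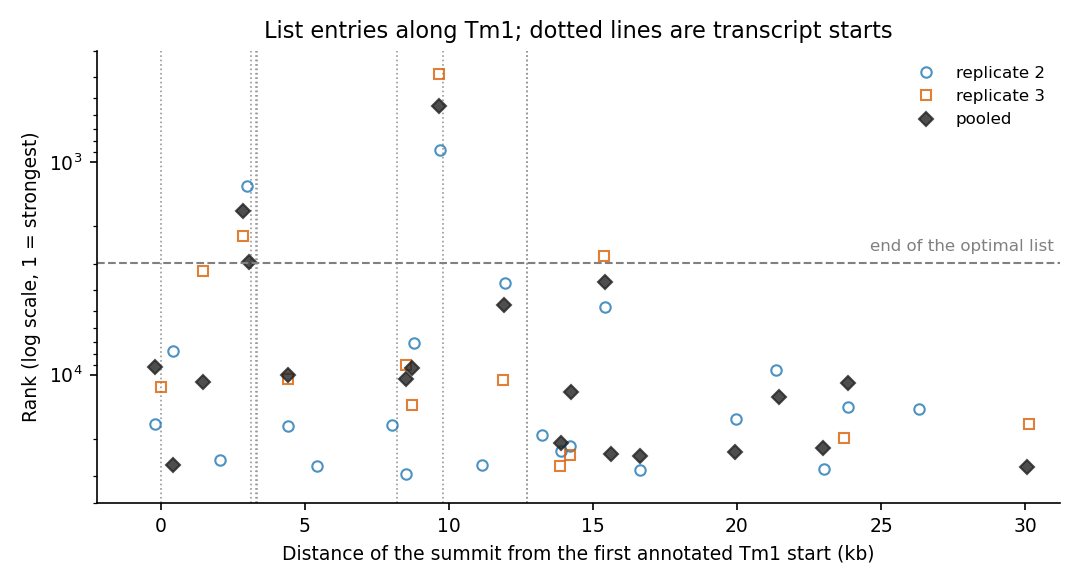
Entries of the pooled list (diamonds), replicate 2 (circles) and replicate 3 (squares) in the Tm1 window, by distance of the summit from the first start (x axis, kb) and rank (y axis, log scale, strongest at the top); dotted lines are transcript starts and the dashed line is the end of the optimal list. Pooled entries pass that line only before the start cluster that begins at 3151 bp and before the start of variants C and I at 9792 bp.

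sls, which codes for the titin-like Sallimus and Kettin proteins that link thin filaments to the Z-disc, had the strongest peak of the 10 genes in the pooled list and in replicate 2, while in replicate 3 the strongest was that of Tm1. The gene lies at 3L 2039681 to 2115611 on the minus strand (FBgn0086906), and its 13 transcripts share the start at 2115611. With pooled reads it took rank 510, with replicate 2 alone 572 and with replicate 3 alone 459. The pooled summit was at 2115915, 304 bp upstream of the start, which was also the nearest annotated start of any gene. The replicate summits were 260 and 358 bp upstream, 98 bp apart. The listed peak was 123 bp wide, against a median of 416 bp in the optimal list.

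The rest of sls, the longest of the 10 genes at 75.9 kb, was nearly empty. It had 1 other pooled entry, at rank 24094, or 2 in all, which is 0.0257 entries per kb of window. Replicate 2 had only the start entry. Replicate 3 had 6 more, the best at 12427 in a coding exon.

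Genes with start peaks most like that of sls in all of the lists were CG9471, Cds and Uba2. Likeness was the sum of absolute differences in log10 rank over the pooled, replicate 2 and replicate 3 lists, among 2020 other genes with a start summit. CG9471 ranked 516, 566 and 465, and Cds and Uba2, which share a peak, ranked 509, 569 and 486 (differences of 0.0153 and 0.0280).

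In the relaxed lists the genes were close to the background. A pooled entry lay in the window of 9 of 10, against 69.6% of all protein-coding genes. A start entry was found at 6 of 10 in the pooled list (50.8% of all), 5 in replicate 2 (53.1%) and 5 in replicate 3 (44.3%). The median density was 0.203 pooled entries per kb of window, against 0.262 over all protein-coding genes. Single genes were spread around these medians. Tm1 had 20 pooled entries in 32.6 kb, or 0.614 per kb, and 93.2% of coding genes from 10 kb had a lower density. For sls that share was 7.51%, for Mhc (0.0413 per kb) 9.72%, for Prm (0.0692 per kb) 16.1% and for wupA (0.225 per kb) 44.6%. Of the short genes, Mlc2 had 0.587 per kb, Act57B 0.453, Tm2 0.428, up 0.180 and Mlc1 0.

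**Figure D3:**
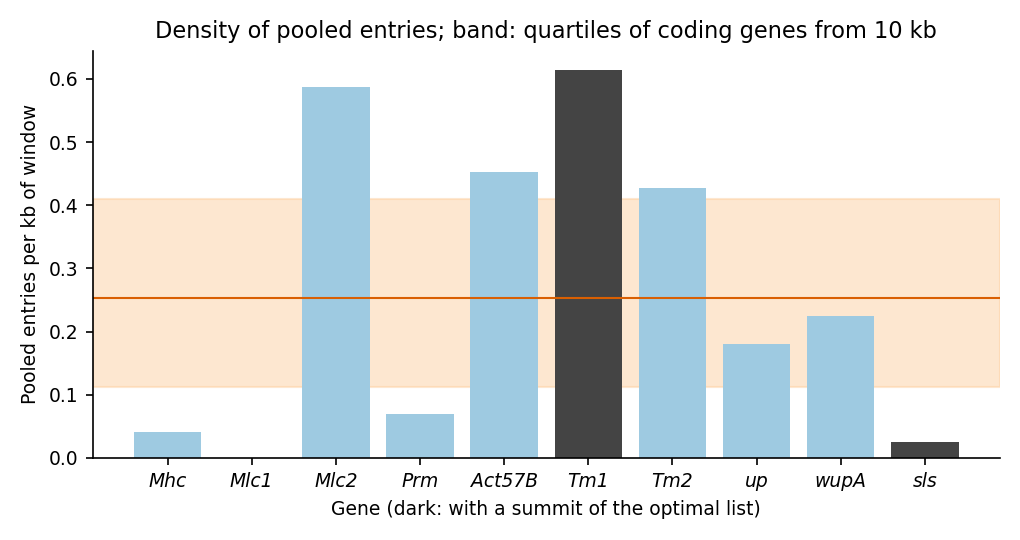
Pooled entries per kb of window (y axis) at each gene, dark where the gene has a summit of the optimal list; the orange line and band are the median (0.253) and the quartiles (0.113 to 0.410) of 1985 protein-coding genes from 10 kb. Tm1, Mlc2, Act57B and Tm2 lie above the band, and sls, Mhc, Prm and Mlc1 lie below it; Mlc1, Mlc2, Act57B, Tm2 and up are shorter than the genes of the band.

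At Tm1 and sls, each of the 4 optimal peaks was overlapped by an entry of both replicates. The optimal list was chosen by agreement between replicates, so this overlap follows from the choice and adds no support. The Tm1 peaks of rank 1697 and 2966 were overlapped by the same entry in each replicate. Of the 37 replicate 2 entries in the windows, 16 overlapped a replicate 3 entry (43.2%, against 15002 of 30000 in the whole list), and of the 37 replicate 3 entries 16 overlapped a replicate 2 entry (43.2%, against 46.7%). At Tm1 these counts were 11 of 22 replicate 2 entries and 11 of 13 replicate 3 entries. At the other 9 genes they were 5 of 15 and 5 of 24. By place, 11 of the 36 pooled entries were within 500 bp of a start of their own gene, 20 in introns, 3 in untranslated exons and 2 further upstream.

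The sequence under these peaks differed from peak to peak. G and C bases made up 21.0% of the 100 bp around the Tm1 summit of rank 1697, against 49.5% in its flanks, centred 400 bp to each side. At the sls summit they were 33.0%, against 29.5% in the flanks. At the strongest Tm1 summit they were 45%, against 37.0%, and at the summit of rank 2966 39.0%, against 35.5%. The centre was thus lower than its flanks at 1 of 4 summits, while 83.5% of all 2993 were lower. The mean difference was -3.38 percentage points (SD 16.9 over 4 summits), against -11.6 (SD 11.8) over all optimal summits. The summits of rank 1697 and 2966, 202 bp apart in overlapping peaks, are counted separately here, though they may be 1 site. The mean rests on the summit of rank 1697: without it the mean was 5.0, and the centre was higher than its flanks at each of the other 3. These differences hold for flanks centred 400 bp away, and other distances were not compared. In 60 bp windows up to 500 bp away, G and C at sls were 33.3% at 0 bp and lowest at 500 bp (18.3%). Local highs and lows nearer the sls summit were 61.7% at -220 bp, 28.3% at -40 bp and 48.3% at 60 bp. At the strongest Tm1 summit G and C were 48.3% at 0 bp and lowest at 240 and 260 bp. Local highs and lows nearer that summit were 58.3% at -120 bp, 35.0% at -20 bp and 56.7% at 20 bp. At the summit of rank 2966 G and C were 46.7% at 0 bp and lowest at -200 bp (11.7%). Only at the summit of rank 1697 was the window at 0 bp the lowest (13.3%). At sls the windows 400 bp to each side were themselves low (26.7% and 28.3%).

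**Figure D4:**
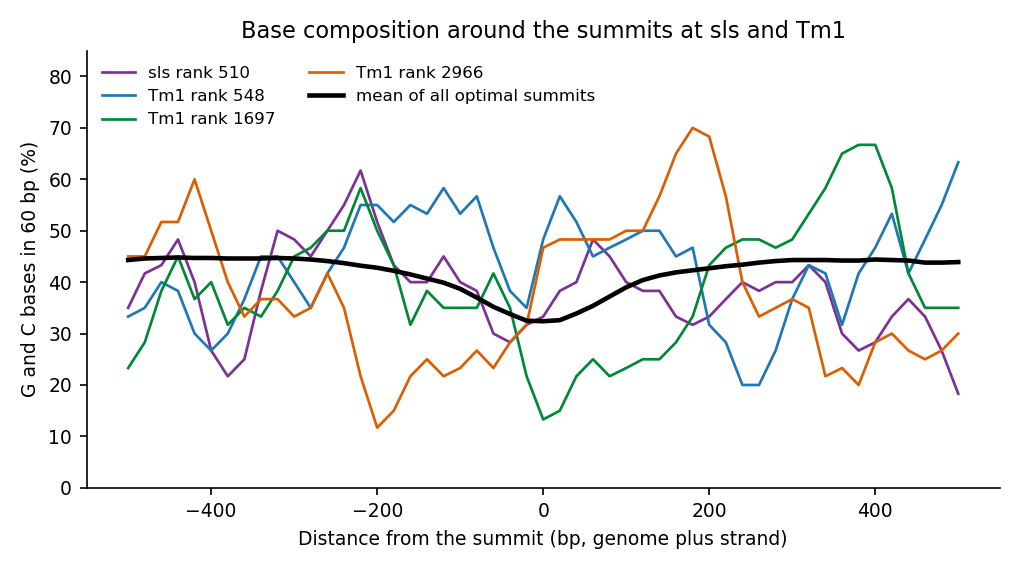
G and C bases in windows of 60 bp (y axis, percent) by distance from the summit (x axis, bp, plus strand of the genome) for the sls peak and the Tm1 peaks, with the mean over all 2993 optimal summits in black. The mean dips at the summit, the Tm1 peak of rank 1697 dips further, and the sls peak and the other Tm1 peaks do not have their lowest point there.

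The promoters of these genes were richer in G and C than most. Over the 300 bases from 250 bp before to 50 bp after the start with most transcripts, they held 36.3% at Tm2 and 45% to 56.0% at the other 9 genes, with a median of 50.3%. The median over 13968 protein-coding genes was 38.0%, and 24.0% of them had 45% or more. Of genes at or above 45%, 9.44% had a start summit, and of those under it, 16.3% had one. This limit was set after the values were seen. Both Tm1 (51.3%) and sls (46.3%) were in the richer class. A start summit can be at any start of a gene, while the composition is that of the start with most transcripts. For Tm1 that start is 15281550, and the promoter at 15288012, where the strongest Tm1 peak lies, was not measured.

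Short sequences were searched on both strands as presence in the same promoter windows and in the 100 bp summit centres. They were TATAAA (the TATA box), CANNTG (the E box, bound by helix-loop-helix factors such as Twist), the MEF2 consensus, TATCGATA (the DRE), GATAA (bound by GATA factors), TAATTA (bound by homeodomains), ATTTAAAA (an A and T run) and GAGAG (bound by GAGA factor). A TATAAA match can lie inside a MEF2 match, and other overlaps were not removed. The MEF2 consensus, named for a muscle regulator, was found in the promoter of Act57B alone, 1 of 10, against 14.3% of all promoters. CANNTG was in 9 of 10 (77.1% of all), missing from Mlc2. TATAAA was in 3 of 10, those of Act57B, Mhc and Tm2 (45.5% of all). GATAA was in 4 (55.1%), GAGAG in 3 (30.2%) and TAATTA in 1 (20.1%), and TATCGATA (9.23%) and ATTTAAAA (14.0%) were in 0.

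At the summit centres, GATAA was at sls and at the strongest Tm1 peak (23.9% of all centres). CANNTG was at the Tm1 peaks of rank 548 and 2966 (33.8%); the sequence of rank 548 shown above has a pair of matches side by side. TATAAA was at the Tm1 peaks of rank 1697 and 2966 (22.6%). The MEF2 consensus (7.08% of all centres), TATCGATA (1.47%), TAATTA (10%), ATTTAAAA (6.92%) and GAGAG (9.02%) were in 0 of 4.

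Most other muscle contractile genes, like most protein-coding genes, had no peak of the optimal list. Of 27 such genes written down as a list, 3 had a start summit (11.1%, against 14.7% of all protein-coding genes). A summit in the window was found at 4 (14.8%, against 21.4% of all and 41.1% of those from 10 kb). The 27 genes run from 0.893 kb to 106 kb, and those 4 are from 45.1 kb (Fhos) upward. Fhos, a formin gene needed for thin filament growth, had the strongest summit, at pooled rank 61 and 273 bp upstream of a start. The entries there ranked 65 in replicate 2 and 63 in replicate 3. Lmpt, a LIM domain protein gene, ranked 252 (258 in replicate 2 and 240 in replicate 3), 438 bp upstream of a start. Msp300, which codes for a giant nesprin that positions muscle nuclei, ranked 273 (503 in replicate 2 and 133 in replicate 3), 330 bp upstream of a start. The gene of the thin filament cap tropomodulin, tmod, had an intron summit at rank 506, 1454 bp downstream of a start. The remaining 23 had none in the window. They include the muscle actins Act79B, Act87E and Act88F, all 5 troponin C genes listed, bt (the projectin gene), Zasp52 and Actn. The best pooled start entry of the 3 actin genes was that of Act87E, at 4084.

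Among 8 counterparts used outside muscle, 1 had a start summit (12.5%, against 14.7% of all protein-coding genes) and 3 had a summit in the window (37.5%, against 21.4%). sqh, the regulatory light chain gene of nonmuscle myosin, had pooled rank 1439, with 2798 in replicate 2 and 826 in replicate 3, 95 bp downstream of its start. The muscle counterpart Mlc2 had its best start entry at 12376. The other nonmuscle genes of the list had pooled start entries ranked from 4422 (Act5C) to 16878 (Mlc-c), so sqh stood apart from them as well. Act5C, a cytoplasmic actin gene, had a window summit at rank 247, 620 bp upstream of a start and 252 bp from a start of lncRNA:CR45668. The cofilin gene tsr ranked 1367, in an intron 1428 bp downstream of a start.

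Of 12 regulators of muscle formation, 2 had a start summit (16.7%, against 14.7% of all protein-coding genes) and 5 had a summit in the window (41.7%, against 21.4% of all and 41.1% of those from 10 kb). Several of the 12 are long, among them Mef2 (45.4 kb) and mbc (19.9 kb). The start summits were at tin, a homeobox gene of the heart and gut muscle, at rank 555, and mbc, a myoblast fusion gene, at rank 603. The mbc summit was nearer to a start of Nup98-96, 47 bp away. The strongest mbc summit, at rank 490, was in an intron. Mef2, the gene of a main muscle transcription factor, had 3 window summits. The strongest, at rank 34, lay 1063 bp upstream of a start of Mef2 and 157 bp from one of Pal1. nau, the fly counterpart of MyoD, had 1, at rank 1513, in an intron and nearer to a start of CG10300, 2580 bp away. kirre, a myoblast adhesion gene and at 394 kb the longest of the 12, had 13, the strongest at rank 336. That summit was nearest to a start of kirre, 2330 bp away. Some of the others were also nearest to kirre, and several were nearer to starts of other genes, such as Syx4 (171 bp) and CG3588 (172 bp).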

How the data were processed

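Positions and signal come from the deposited peak lists for build dm6. Per the notes the submitters deposited with each sample, a relaxed list was made from the reads of each replicate, and 1 from both, each with 1 control file, and the optimal list came from these lists by IDR. The signal values are the authors' own, their scaling is not stated, and they were used only to rank entries within a list. The aligner and the peak caller are not given in the sources used. The optimal list held exactly the 2993 strongest pooled entries.

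A summit was column 2 plus column 10 plus 1. Genes and starts came from Ensembl release 115, without transposable elements. Sequence was read from the Release 6 genome (dm6). RefSeq gave the same start and end for all 10 genes and the variant letters. Lists in dm3 were not used here. Python 3.11.15, numpy 2.4.6, pandas 2.3.3 and matplotlib 3.10.9 were used, and summit assignment was tested on simulated data.

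The members, the gene lists and the alternatives were chosen with earlier results of these data known, so they are described by counts beside those of all protein-coding genes, with no test. The named genes are all members, every gene of the lists with a summit of the optimal list, and the 3 genes most like sls; those named otherwise were chosen after their values were seen. Peaks and genes are not replicates, and with 2 samples of 1 group no test between samples can be made.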

Additional observations from a re-analysis of the deposited data

How the results depend on the processing

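Tm1 and sls were the genes with a start summit of the 10 with each replicate alone, with the stronger part of the optimal list, with double its length, by overlap of the peak and at 1000 bp; with protein-coding transcripts alone the count was also 2. At 200 bp the count was 1, since the sls summit is 304 bp from its start. With the gene body alone, 1 gene had a summit. The number of summits, 4 in the main setting, was 2 in the stronger part of the list (1496 peaks), from 3 to 4 with 1 replicate left out, 5 with 5 kb upstream and 6 with double the length of the list. Summits within 100 bp in both replicates were found for 2 of the 4 peaks. The difference in G and C between centre and flanks was -2.46 percentage points with 60 bp centres, -0.25 with 200 bp, -1.5 against the left flank, -5.25 against the right, -4.0 at replicate 3 summits, and 5.0 without the summit of rank 1697, which turned its sign. The settings of replicate summits and of the left-out summit were chosen after seeing the data. No paired analysis was possible because there is only 1 group. The depth is unknown, so a gene without an entry is not shown to be unbound.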
